A study of Mus musculus with 24 samples.

Results

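MHC class II molecules present peptides taken up from outside the cell to CD4+ T cells, and 7 genes of this route were followed across aged mouse livers: the invariant chain Cd74, the classical chains H2-Aa, H2-Ab1 and H2-Eb1, the peptide editors H2-DMa and H2-DMb1, and the transactivator Ciita. They were taken by gene symbol from a list of names, with no threshold on a measured value, and are 7 of the 55421 genes in the count and FPKM tables. All 7 passed the filter on low counts and were among the 13847 genes tested. The RNA was polyadenylated RNA of hepatocytes from C57BL/6J male mice, each library being 1 animal, isolated by a 2-step perfusion of the liver and a density gradient. All mice began a normal diet (ND) at 4 months of age, with either vehicle or encapsulated rapamycin (eRapa), an inhibitor of the kinase mTOR, mixed into it. At 18 months 8 of the vehicle animals stayed on ND (the group ND + veh) and 7 moved to a high-fat diet (HFD, in which fat makes up 60% of calories; the group HFD + veh), while the 9 eRapa animals moved to HFD and kept the drug at 42 ppm (the group HFD + eRapa), in each case for 9 weeks. Since the eRapa animals had received the drug from 4 months, the group differs from HFD + veh by long-term treatment and not by a late addition, and there was no group on ND with eRapa.

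A class II molecule is an alpha and a beta chain, H2-Aa with H2-Ab1 in the I-A molecule and H2-Eb1 as the beta chain of I-E, whose alpha chain the C57BL/6 haplotype does not make. The invariant chain holds the new molecule together and fills its groove, proteases of the endosome then trim the invariant chain to a short peptide, and the DM heterodimer of H2-DMa and H2-DMb1 exchanges this peptide for an antigen. Dendritic cells, macrophages, including the Kupffer cells of the liver sinusoid, and B cells carry these genes constitutively, liver sinusoidal endothelium carries them at a lower level, and hepatocytes are known as class II-poor cells. Ciita is the master regulator: it binds no DNA itself but docks on RFX, CREB and NF-Y, which sit on the X and Y boxes of every class II promoter.

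The promoters of the members show what they share in sequence. Between 110 and 41 bases before the RefSeq start site of 3 members, an X core (GNAACT) was followed by a Y box (GATTGG), and those stretches are printed here 5′ to 3′ on the strand of the gene, with the X core and the Y box in capitals (GRCm38.p6; H2-Aa at chr17:34287864-34287933 on the minus strand, H2-Eb1 at chr17:34305757-34305826 and H2-DMb1 at chr17:34153081-34153150 on the plus strand).
H2-Aa: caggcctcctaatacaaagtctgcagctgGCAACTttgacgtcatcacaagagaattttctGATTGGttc
H2-Eb1: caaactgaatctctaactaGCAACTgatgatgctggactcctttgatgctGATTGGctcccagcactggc
H2-DMb1: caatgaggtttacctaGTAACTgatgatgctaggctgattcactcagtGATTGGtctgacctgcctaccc
The X core began at position -81 in H2-Aa, -91 in H2-Eb1 and -94 in H2-DMb1, and the Y box at -49, -60 and -62, so that the starts of the boxes lay 32, 31 and 32 bases apart. Both motifs were searched on both strands of 32851 RefSeq windows of 300 bases, from 250 before to 50 after the start, and these letters were chosen after the class II windows had been viewed. The X core was in 42.8% of the windows and the Y box in 16.1%, while an X core followed by a Y box with starts 28 to 36 bases apart was in 57 windows, or 0.174%; the motifs cannot overlap at that spacing. The pair was found in neither of the 2 windows of H2-DMa, 1 of which held a Y box at -199, and no window was at hand for Cd74, H2-Ab1 or Ciita. Outside the members, H2-Eb2, the second E beta gene, held the pair at -132 and -101, while H2-DMb2, H2-Oa and H2-Ob each held a Y box (at -91, -44 and -58) and no pair. A match describes the letters only and was not tested as a site.

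In the Gencode annotation of GRCm38, which is the assembly called mm10, 5 of the members lie in the major histocompatibility complex on chromosome 17: H2-DMa at chr17:34119541-34139101, H2-DMb1 at chr17:34153072-34160230, H2-Ab1 at chr17:34257689-34269419, H2-Aa at chr17:34282744-34287823 on the minus strand and H2-Eb1 at chr17:34305867-34316674. Cd74 spans chr18:60803848-60812652 and Ciita spans chr16:10480059-10528418. Ciita overlaps the minus-strand gene Dexi, H2-Eb1 overlaps the antisense gene Gm20513 and Cd74 overlaps the microRNA gene Mir5107. H2-DMa overlaps Brd2, the pseudogene Gm20493 and a pair of transcripts annotated as antisense. Of that pair CR974462.4 is on the minus strand and CR974462.3 on the plus strand, which is also the strand of H2-DMa. Whether the counting used strand is not given in the sources used here, so reads in those overlaps cannot be assigned with certainty. H2-DMb1 has a near-identical neighbour, H2-DMb2, whose reads the counting could split; H2-DMb2 had a median of 0.879 CPM (counts-per-million after TMM scaling, the scale of all levels here unless FPKM is named) at most in any group and failed the low-count filter.

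Libraries held 17739252 to 25945134 counts in ND + veh, 19847642 to 22032787 in HFD + veh and 17829987 to 23631003 in HFD + eRapa. Hepatocyte markers were abundant in all of them: the summed level of 7 hepatocyte markers lay between 51263 and 159445 CPM in every library, and albumin (Alb) alone had a median of 94471, 94398 and 77408 in the 3 groups. Markers of other liver cells were present too. A sum of 7 pan-leukocyte markers ran from 3.74 to 171 (median 26.6) CPM in ND + veh, from 21.6 to 1232 (median 364) in HFD + veh and from 4.16 to 112 (median 36.4) in HFD + eRapa. HFD + veh 6 and ND + veh 8 had the highest pan-leukocyte sums of their groups, and both are named beside the values they touch.

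Cd74, the invariant chain, was the most abundant member. Its normalised read count ranged from 4.76 through a median of 32.4 to 288 CPM in ND + veh, from 19.2 through 254 to 394 in HFD + veh, and from 5.12 through 46.1 to 82.4 in HFD + eRapa. The groups overlapped: HFD + veh 1 and 2 lay below the ND + veh median, and ND + veh 8, at 288, lay above every HFD + eRapa animal. Mean levels were 65.5 ± 93.7 CPM (SD, n = 8), 211 ± 173 (n = 7) and 39.4 ± 29.8 (n = 9), so that in ND + veh the SD exceeded the mean.

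Among the classical chains, H2-Aa, the alpha chain of I-A, ranged from 0.964 through 9.99 to 96.0 CPM in ND + veh, from 5.16 through 97.8 to 485 in HFD + veh and from 1.46 through 16.0 to 49.1 in HFD + eRapa. H2-Ab1, its beta chain, ranged from 1.13 through 9.28 to 66.8 CPM, from 4.67 through 75.4 to 172 and from 1.41 through 15.3 to 31.5 in the same order of groups. H2-Eb1, the E beta chain, ranged from 1.08 through 7.67 to 56.8 CPM, from 5.46 through 76.9 to 224 and from 1.86 through 14.5 to 34.2. For all 3 chains the HFD + veh animals fell into a high set (3, 4, 5 and 6), an intermediate animal (7) and a low pair (1 and 2), and the low pair lay below the medians of both other groups. HFD + veh 6 stood out for H2-Aa with 11539 counts, and its 485 CPM was well above the next animal of its group (HFD + veh 4, 163 CPM).

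The peptide editors were less abundant and followed the same animals. H2-DMa ranged from 0.227 through 1.52 to 8.19 CPM in ND + veh, from 1.04 through 9.90 to 22.2 in HFD + veh and from 0.338 through 2.14 to 5.14 in HFD + eRapa. H2-DMb1 ranged from 0.170 through 0.871 to 7.48, from 0.678 through 11.2 to 32.1 and from 0.112 through 1.67 to 4.80 CPM. The lowest H2-DMb1 values rest on 3 counts in ND + veh 1 and 2 counts in HFD + eRapa 6, so differences among the lowest animals are not resolved at this depth.

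Ciita, the transactivator, was the least abundant member. It ranged from 0.227 through 0.800 to 3.79 CPM in ND + veh, from 0.313 through 5.13 to 12.4 in HFD + veh and from 0 through 1.05 to 2.07 in HFD + eRapa. HFD + eRapa 8 had no Ciita count, which allows up to 0.185 CPM (3 counts), and HFD + eRapa 5 and 6 had 2 and 3 counts. The order of animals for Ciita was close to that of the other members, ND + veh 8 and HFD + veh 6 being highest in their groups for Ciita as well. Genes outside the members shared this order too, as given below.

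**Figure D1:**
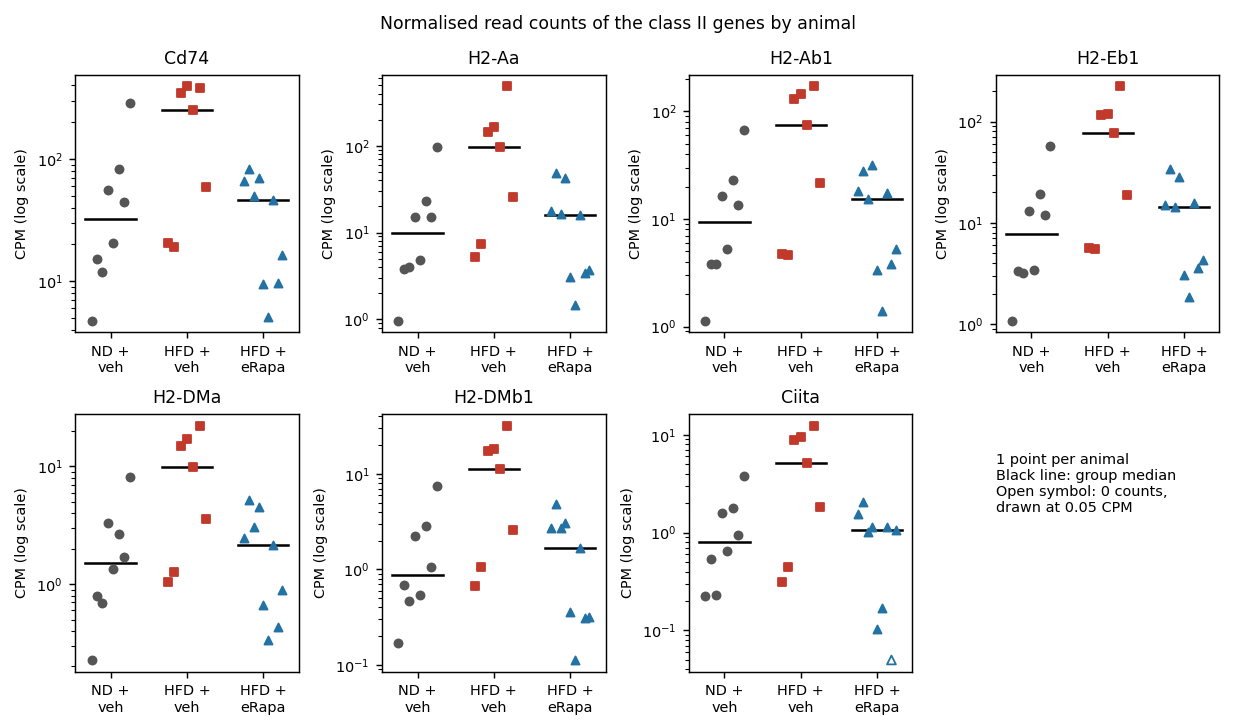
Normalised read counts (CPM, log scale) of the 7 class II genes, 1 point per animal, with the group median as a black line; the open triangle is the HFD + eRapa animal with 0 Ciita counts. In every panel HFD + veh 3, 4, 5 and 6 lie above all 9 HFD + eRapa animals, HFD + veh 1 and 2 lie low, and ND + veh 8 is the top animal of its group.

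The same animals were high or low for all 7 genes. ND + veh 8 was highest and ND + veh 1 lowest of its group for each member, and ND + veh 4 and 6 followed ND + veh 8. In HFD + veh the order was 6, 4, 3, 5, 7 and then 1 and 2, except that for Cd74 animal 4 led. HFD + eRapa 2 led for 6 members and HFD + eRapa 4 for H2-Ab1. Over the 24 libraries, with group means removed, the 21 pairs of members had Pearson r from 0.903 (Ciita and H2-Aa) to 0.995 (H2-Aa and H2-Eb1) with a median of 0.981 on log2 CPM; this is a description, since the members of a pair come from the same library.

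Per length, on the FPKM scale, Cd74 had the highest median in each group, the classical chains came next, then the editors, and Ciita had the lowest. Median FPKM in ND + veh was 27.4 for Cd74, 9.61 for H2-Aa, 8.72 for H2-Ab1, 7.24 for H2-Eb1, 1.48 for H2-DMa, 0.738 for H2-DMb1 and 0.119 for Ciita. In HFD + veh the medians were 218 for Cd74, 95.5 for H2-Aa, 73.6 for H2-Eb1, 70.2 for H2-Ab1, 10.4 for H2-DMa, 8.78 for H2-DMb1 and 0.833 for Ciita. In HFD + eRapa they were 42.3 for Cd74, 16.0 for H2-Aa, 14.7 for H2-Eb1, 13.9 for H2-Ab1, 2.35 for H2-DMa, 1.53 for H2-DMb1 and 0.188 for Ciita. Cd74 exceeded H2-Aa in 8 of 8, 6 of 7 and 9 of 9 animals, the exception being HFD + veh 6. The classical chains were close neighbours that did not keep their order: H2-Aa exceeded H2-Ab1 in 6 of 8 ND + veh animals, H2-Eb1 exceeded H2-Ab1 in 4 of 7 HFD + veh and 5 of 9 HFD + eRapa animals, and H2-Aa exceeded H2-Eb1 in 5 of 9 HFD + eRapa animals. The alpha to beta ratio of I-A, H2-Aa over H2-Ab1 in FPKM, had medians of 1.08, 1.28 and 0.984 in the 3 groups, and in HFD + veh 6 it was 3.01 against 1.62 in the next animal of its group.

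The first comparison asks what 9 weeks of HFD did to the class II genes of old, vehicle-treated animals. With edgeR's quasi-likelihood test and a Benjamini-Hochberg adjusted p under 0.05, 6 of the 7 members rose, against 16.0% of all tested genes called higher and 9.86% called lower. H2-Aa rose by a log2 fold change of 2.71 ± 0.97 (SE; 6.52-fold, adjusted p = 0.0428), H2-Eb1 by 2.54 ± 0.85 (adjusted p = 0.0315) and H2-Ab1 by 2.25 ± 0.83 (adjusted p = 0.0498). Both editors rose, H2-DMb1 by 2.62 ± 0.85 (adjusted p = 0.0282) and H2-DMa by 2.07 ± 0.72 (adjusted p = 0.0373), as did Ciita by 2.17 ± 0.76 (adjusted p = 0.0395). For Cd74 the log2 fold change was 1.69 ± 0.81, with an adjusted p of 0.123. The median log2 fold change of the members was 2.25, beside 0.05 over all genes tested. The groups overlapped for every member (0 of 7 did not overlap, against 2.44% of genes), and 4 of 7 HFD + veh animals exceeded the highest ND + veh animal for 6 members and 3 of 7 for Cd74. In bulk RNA, fewer or more cells of a class II-bearing type and less or more class II RNA per cell cannot be told apart, and this holds for every value given here. The call depended on single animals: no member was called without any 1 of ND + veh 1, 2, 3 or 5 or HFD + veh 3, 4 or 6, 1 was called without ND + veh 7, 2 without ND + veh 6 or HFD + veh 5, 3 without ND + veh 4 and all 7 without ND + veh 8. Calls also fell to 0 with no low-count filter and to 1 when only both groups entered the fit.

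The second comparison asks how HFD + eRapa differed from HFD + veh on the same diet. All 7 members fell, against 21.1% of tested genes called lower and 10.9% called higher. H2-Aa fell by 2.96 ± 0.94 on the log2 scale (7.76-fold lower, adjusted p = 0.0191), H2-Eb1 fell by 2.60 ± 0.81 (adjusted p = 0.0179) and H2-Ab1 fell by 2.52 ± 0.81 (adjusted p = 0.0205). H2-DMb1 fell by 2.74 ± 0.82 (adjusted p = 0.0142) and H2-DMa fell by 2.19 ± 0.69 (adjusted p = 0.0192). Ciita fell by 2.58 ± 0.75 (adjusted p = 0.0114) and Cd74 fell by 2.42 ± 0.79 (5.35-fold lower, adjusted p = 0.0229). The median was -2.58, beside -0.04 over all genes tested. For each member all 9 HFD + eRapa animals lay below the HFD + veh median, yet none of the 7 was free of overlap (2.59% of genes were): HFD + veh 1 and 2 lay within the HFD + eRapa range, with 4 of 9 HFD + eRapa animals below the lowest HFD + veh animal for 5 members and 3 of 9 for H2-Ab1 and Ciita. Leaving out HFD + veh 6 left 1 member called (Ciita, adjusted p = 0.0418), and leaving out HFD + veh 4 left 4. HFD + veh is the shared reference of this and the first comparison, so the opposite signs are not separate observations.

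The third comparison sets the 2 outer groups side by side: HFD + eRapa against ND + veh. No member was called (0 of 7 with edgeR, 0 with DESeq2 and 0 with limma voom, and 0 at an unadjusted p under 0.05), where 6.93% of tested genes were called higher and 6.54% lower. Log2 fold changes ran from -0.73 ± 0.75 for Cd74 (adjusted p = 0.595) through -0.41 ± 0.72 for Ciita, -0.27 ± 0.77 for H2-Ab1 and -0.25 ± 0.88 for H2-Aa to -0.06 ± 0.77 for H2-Eb1 (adjusted p = 0.978). The standard errors of 0.67 to 0.88 show how wide a difference this comparison leaves undetected. No member was free of overlap, against 3.37% of genes. The signs depended on single animals: without ND + veh 8 all 7 log2 fold changes were positive, from 0.10 for Ciita to 0.84 for H2-Aa, and the sign also turned without 1 of several other animals for H2-Eb1 (6 libraries in all), H2-DMb1 (5) and H2-DMa (4).

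**Figure D2:**
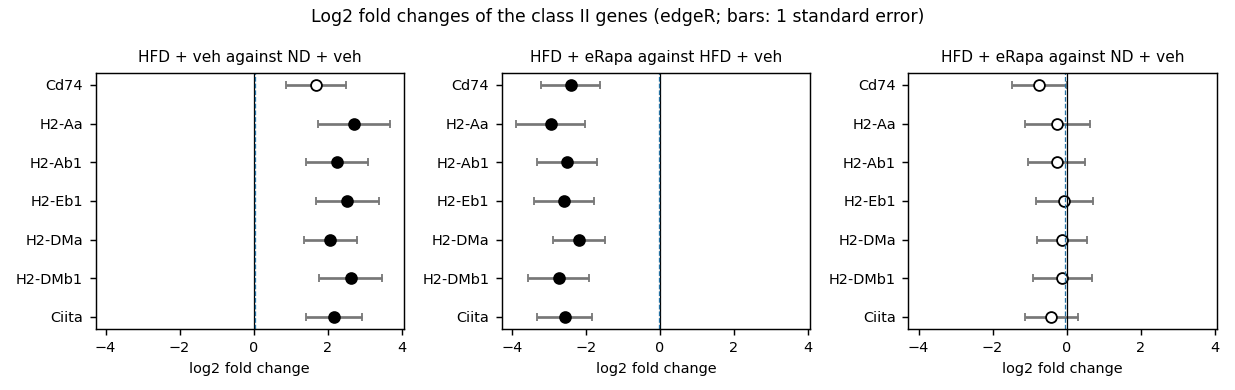
Log2 fold changes (x axis) of the 7 class II genes in the 3 comparisons, with bars of 1 standard error from edgeR; filled points have an adjusted p under 0.05 and the dashed line is the median of all tested genes. In the first panel 6 of 7 points are filled and positive, in the second 7 of 7 are filled and negative, and in the third 0 are filled.

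Markers of antigen-presenting and other non-parenchymal cells moved with the members. Over all tested genes 16.0% were called higher with HFD and 21.1% lower in HFD + eRapa against HFD + veh. All 7 pan-leukocyte markers rose in HFD + veh against ND + veh and all 7 fell in HFD + eRapa against HFD + veh, with medians of 2.69 and -3.25; Ptprc, which encodes the leukocyte antigen CD45, rose by 3.55 (adjusted p = 0.0145) and fell by 3.49 (adjusted p = 0.00801). Of 12 macrophage markers 5 rose and 10 fell, and their summed level ran from 65.5 to 1472 CPM (median 310) in ND + veh, from 332 to 6652 (median 3114) in HFD + veh and from 60.4 to 1321 (median 293) in HFD + eRapa. Of 8 dendritic cell markers 6 were tested, of which 5 rose and 6 fell, with sums of 4.42 to 14.5, 5.58 to 117 and 3.49 to 14.8 CPM. Of 9 B cell markers 3 were tested, of which 2 rose and 3 fell, with sums of 3.35 to 30.7, 3.65 to 127 and 0.450 to 27.6 CPM. All 5 monocyte markers rose and 4 fell, with sums of 0.624 to 13.0, 3.29 to 404 and 1.35 to 24.6 CPM. Their part in the class II result was not tested.

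Endothelial and stellate markers were called more often in the second comparison than in the first. Over all tested genes 16.0% were called higher in the first and 21.1% lower in the second. Of 8 sinusoidal endothelial markers 1 rose with HFD and all 8 fell in HFD + eRapa against HFD + veh, with sums of 83.2 to 466, 118 to 806 and 65.6 to 366 CPM. Their log2 fold changes with HFD were all positive, from 0.50 to 1.61 with a median of 0.72. Of 7 stellate markers 2 rose and 7 fell, with sums of 30.6 to 248, 36.3 to 488 and 20.9 to 106 CPM. Their log2 fold changes with HFD ran from -0.41 to 2.63 with a median of 0.88. Of 7 hepatocyte markers 1 fell with HFD (9.86% of all genes did), and 3 rose in the eRapa group against HFD + veh (10.9% of all genes did), where the list was split: Fabp1 rose by 0.90, Apoa1 by 0.71 and Asgr1 by 0.48, while Alb had -0.52, Ttr -0.39 and Cps1 -0.20 and were not called. Their part in the class II result was not tested either.

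Animal by animal, Cd74 followed the markers of leukocytes and of other non-parenchymal cells alike. With group means removed, over 24 libraries that share the depth of each library, Cd74 had a Spearman rho of 0.968 (Pearson r 0.976) with the pan-leukocyte sum, 0.957 (0.971) with the macrophage sum, 0.960 (0.950) with the endothelial sum, 0.924 (0.909) with the stellate sum and 0.868 (0.892) with the B cell sum. With the hepatocyte sum the same measures were -0.017 and -0.060, and with the plasma cell sum 0.146 and 0.142. In ND + veh the plasma cell sum was mostly Derl3 (median 6.29 CPM, beside 0.851 for Jchain). These genes went opposite ways with HFD: Derl3 had -1.12, which was not called, and Jchain rose by 3.18. The low value for the sum therefore does not describe each plasma cell gene. Without the 2 animals farthest from the median, Pearson r was 0.969 for the pan-leukocyte, 0.963 for the macrophage and 0.936 for the endothelial sum. These are descriptions and no test was attached to them.

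**Figure D3:**
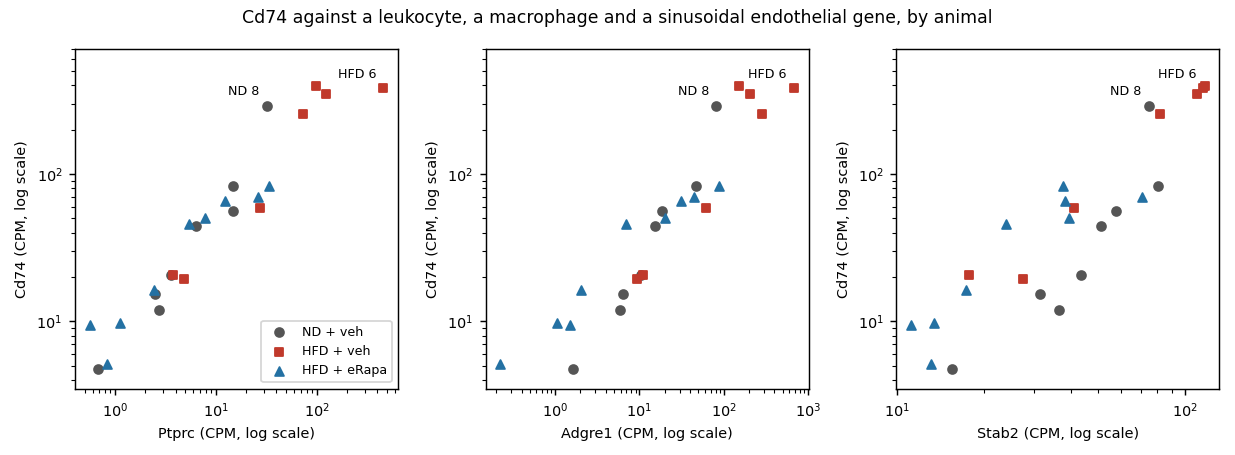
Cd74 (CPM, log scale, y axis) against the leukocyte gene Ptprc, the macrophage gene Adgre1 and the sinusoidal endothelial gene Stab2 (CPM, log scale, x axes), 1 point per animal. The points lie along a single band for Ptprc, with HFD + veh 6 to its right, while for Stab2 most ND + veh animals lie below the HFD + eRapa animals of like Stab2 level.

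A score per library, the mean z-scored log2 CPM of the 8 immune marker lists or of the sinusoidal endothelial list, was entered in the fit, and the members lost calls or changed sign. With the immune score in the model, no member was called for the HFD effect, the 7 log2 fold changes running from -0.72 for Cd74 to -0.30 for H2-Eb1. For HFD + eRapa against HFD + veh the same covariate gave positive values from 0.46 for Ciita to 0.93 for H2-Ab1, and 2 members (H2-Ab1 and H2-Eb1) were called higher. With the endothelial marker score, the log2 fold changes of the first comparison were 0.53 to 1.06, in place of 1.69 to 2.71, and 5 members were called higher, while in the second the values were 0.23 to 0.70 with 0 called, and 6 were called higher in HFD + eRapa against ND + veh. The scores come from transcripts of the same libraries, so such a fit sets the members against those transcripts.

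**Figure D4:**
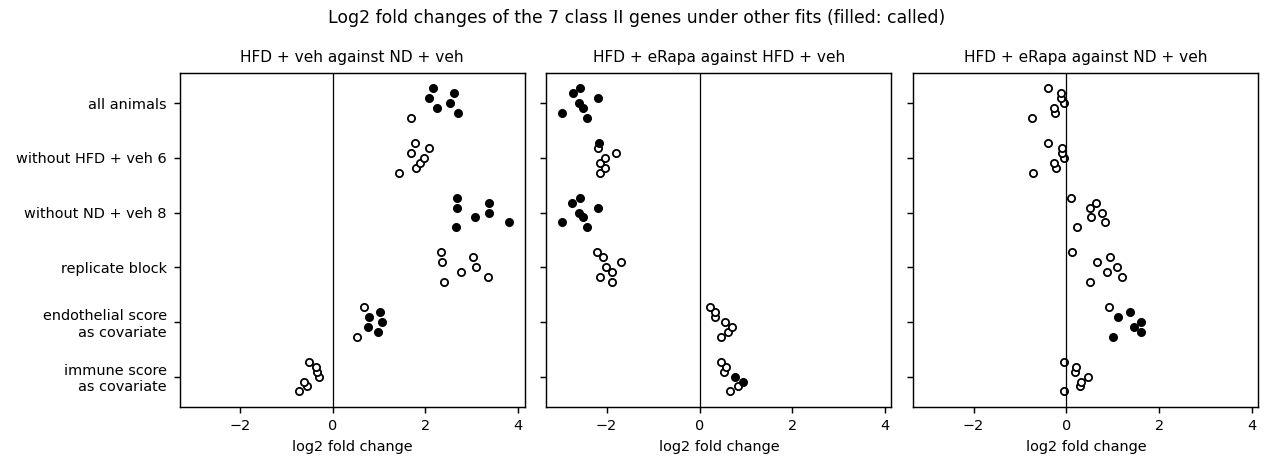
Log2 fold changes (x axis) of the 7 class II genes, 1 point per gene, in the 3 comparisons (panels) under 6 fits (rows); filled points have an adjusted p under 0.05. In the first panel the points move from 1.69 and above with all animals to below 0 with the immune score as covariate, and in the second from -2.19 and below to above 0 with either score.

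Ratios within a library asked whether the members moved by equal amounts. Each other member was set against Cd74 as a log2 ratio of CPM + 0.5, with a two-sided exact permutation test over animals, adjusted over 18 tests. H2-Aa to Cd74 was -1.74 ± 0.19 (SD, n = 8) in ND + veh and -1.14 ± 0.70 (n = 7) in HFD + veh, a difference of 0.61 (exact p = 0.00528, adjusted p = 0.0238), with 6 of 7 HFD + veh animals above every ND + veh animal. H2-Eb1 to Cd74 was -2.04 ± 0.25 and -1.56 ± 0.36, a difference of 0.48 (exact p = 0.00187, adjusted p = 0.0238), again with 6 of 7 animals above all ND + veh. In HFD + eRapa against ND + veh, H2-Eb1 to Cd74 was higher by 0.50 (exact p = 0.00362, adjusted p = 0.0238), with 8 of 9 animals above the ND + veh median, and H2-Ab1 to Cd74 by 0.32 (exact p = 0.00453, adjusted p = 0.0238), also in 8 of 9. Relative to Cd74, H2-Eb1 was thus called above ND + veh in both HFD groups, H2-Aa in HFD + veh and H2-Ab1 in HFD + eRapa. For the classical chains, the differences from ND + veh that were not called had the same sign. H2-Aa was higher by 0.33 in HFD + eRapa (exact test, adjusted p = 0.256) and H2-Ab1 by 0.20 in HFD + veh (exact test, adjusted p = 0.349). These ratios share the ND + veh animals and Cd74, so they are not separate observations. Between HFD + eRapa and HFD + veh no ratio passed the test (0 of 6, none at an unadjusted p under 0.05, lowest adjusted p = 0.280). The ratios of H2-DMa, H2-DMb1 and Ciita to Cd74 passed in no comparison. Their differences in HFD + veh against ND + veh were -0.19, 0.11 and -0.45. These genes had medians of 1.52, 0.871 and 0.800 CPM in ND + veh, so the added 0.5 CPM sets much of the ratio in low animals. The absence of a call therefore does not show that they moved equally with Cd74. Without HFD + veh 6 the H2-Aa difference was 0.36 (exact test, adjusted p = 0.0659), and with 5 CPM in place of 0.5 no ratio was called.

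**Figure D5:**
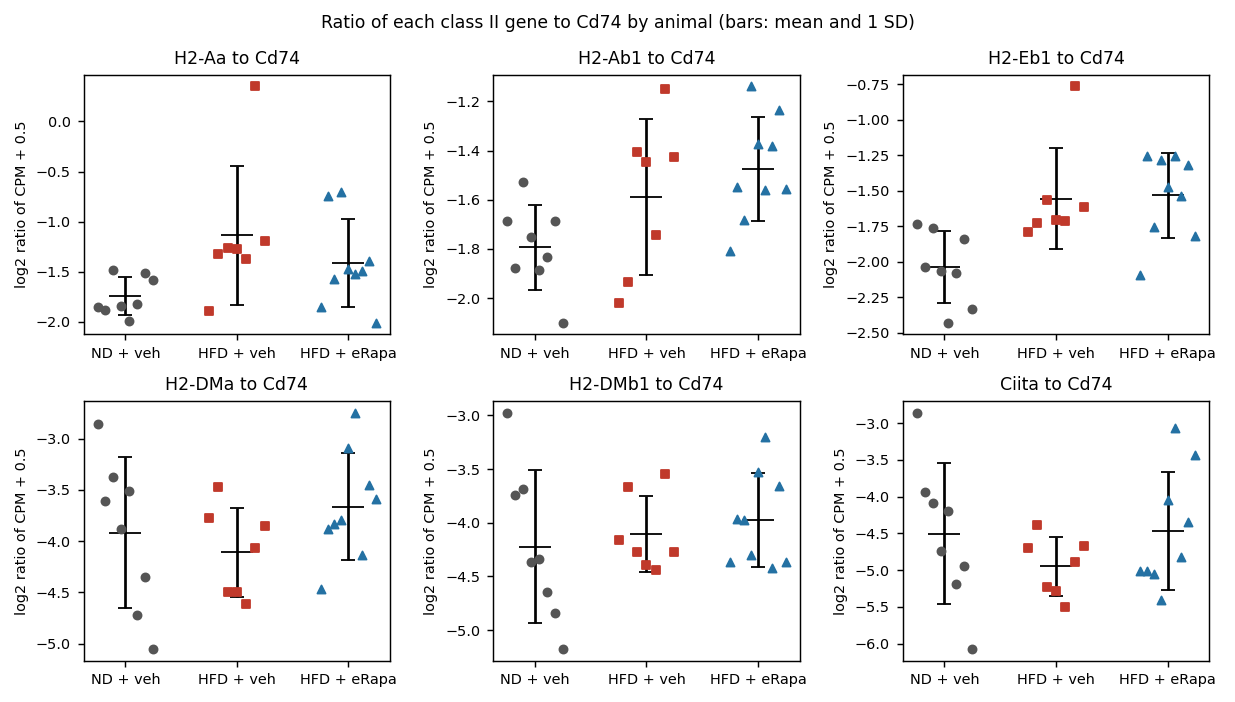
Log2 ratio of each class II gene to Cd74 (CPM + 0.5, y axis) by group, 1 point per animal, with mean and 1 SD. HFD + veh 6 is the highest point for H2-Aa (0.35) and H2-Eb1 (-0.77), and for H2-Eb1 the ND + veh mean (-2.04) lies below those of both HFD groups.

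Cd74 and H2-Ab1 were also set against Ptprc, the macrophage gene Adgre1, the sinusoidal endothelial gene Stab2 and the class I light chain B2m, over 24 exact permutation tests. None of these ratios passed after adjustment (lowest adjusted p = 0.0567), while 6, 4 and 0 of the 8 ratios had an unadjusted p under 0.05 in the 3 comparisons. Cd74 to Ptprc was 2.38 ± 0.41 (SD, n = 8) in ND + veh and 1.46 ± 0.85 (n = 7) in HFD + veh, a difference of -0.92 (exact p = 0.00482, adjusted p = 0.0567), with 7 of 7 animals below the ND + veh median. Cd74 to Stab2 differed the other way, by 1.44 (exact p = 0.0261, adjusted p = 0.0758), and H2-Ab1 to Stab2 by 1.64 (exact p = 0.0165, adjusted p = 0.0569). For HFD + eRapa against HFD + veh, Cd74 to Ptprc was higher by 0.88 (exact p = 0.0284, adjusted p = 0.0758) and H2-Ab1 to Ptprc by 1.00 (exact p = 0.00857, adjusted p = 0.0567). Ratios to Adgre1 had the signs of those to Ptprc. Cd74 to Adgre1 differed by -0.85 in the first comparison and 1.39 in the second (exact test, adjusted p = 0.0567 and 0.0569). H2-Ab1 to Adgre1 differed by -0.64 and 1.505 (exact test, adjusted p = 0.0858 and 0.0567). Against B2m, Cd74 differed by 1.11 and -1.48 and H2-Ab1 by 1.32 and -1.365 (exact test, adjusted p at least 0.123). Without ND + veh 8, 4 ratios passed in the first comparison (Cd74 and H2-Ab1, each to Ptprc and to Stab2, exact test, adjusted p = 0.0402 for all 4) and 1 in the third.

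The rest of the pathway was followed in 7 lists of 47 genes, of which 42 were tested. In HFD + veh against ND + veh 22 of the 42 rose and 3 fell (52.4% and 7.14%), with a median log2 fold change of 0.55 beside 0.05 over all genes. In HFD + eRapa against HFD + veh 2 rose and 27 fell (4.76% and 64.3%), with a median of -0.67. In HFD + eRapa against ND + veh 1 rose and 5 fell (2.38% and 11.9%). Over all tested genes the shares called higher and lower were 16.0% and 9.86% in the first comparison. They were 10.9% and 21.1% in the second and 6.93% and 6.54% in the third. The same shares stand beside the count of each list below. Without HFD + veh 6 the first count of 25 called genes was 11, and with the immune score as a covariate the called genes numbered 4 in the first comparison and 7 in the second.

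Among the other class II chains, H2-Ob, the beta chain of the DM inhibitor DO, was the one gene of 4 that passed the low-count filter. It rose by 2.55 ± 0.82 with HFD (adjusted p = 0.0267) and fell by 3.23 ± 0.83 in HFD + eRapa against HFD + veh (adjusted p = 0.00582). H2-Oa, H2-DMb2 and H2-Eb2 had medians under 1 CPM in every group and were not tested; H2-Eb2 had a median of 0 in ND + veh and in HFD + eRapa and reached 4.25 CPM in HFD + veh.

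Of 9 genes that trim the invariant chain or process antigen, 6 rose with HFD and 7 fell in HFD + eRapa against HFD + veh. The shares of all tested genes were 16.0% called higher and 21.1% called lower. The abundant lysosomal proteases had log2 fold changes of about 1 or less with HFD: Ctsb (cathepsin B) rose by 1.09 ± 0.24 (adjusted p = 0.00305) and fell by 1.50 ± 0.23 (adjusted p = 0.000105), and Ctsd (cathepsin D) rose by 0.80 ± 0.21 and fell by 0.97 ± 0.21 (adjusted p = 0.0110 and 0.00176). Sppl2a, the intramembrane protease that removes the last invariant chain fragment, rose by 0.46 ± 0.16 (adjusted p = 0.0363) and fell by 0.55 ± 0.15 (adjusted p = 0.00918). Ctsl (cathepsin L) had 0.22 ± 0.12 with HFD (adjusted p = 0.164), fell by 0.56 ± 0.11 in HFD + eRapa against HFD + veh (adjusted p = 0.00130) and was the one gene of the list called against ND + veh, where it fell by 0.34 ± 0.11 (adjusted p = 0.0433). Of the less abundant genes, named after their values were seen, Ctss, the main invariant chain protease of antigen-presenting cells, rose by 3.24 and fell by 3.40, Lgmn (asparagine endopeptidase) rose by 2.33 and fell by 2.55, and Ifi30, the thiol reductase GILT, rose by 2.05 and fell by 1.98. Ctsh and Ctsz were called in none of the 3 comparisons.

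The ubiquitin ligases that remove class II from the surface split. March1, the ligase of antigen-presenting cells, rose by 3.37 ± 1.07 with HFD (adjusted p = 0.0251) and fell by 3.36 ± 1.02 in HFD + eRapa against HFD + veh (adjusted p = 0.0153). March8, its widely expressed relative, had -0.13 ± 0.10 with HFD (adjusted p = 0.353) but rose by 0.50 ± 0.10 in HFD + eRapa against HFD + veh (adjusted p = 0.000894) and by 0.37 ± 0.09 against ND + veh (adjusted p = 0.00802).

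Cd74 also serves as the receptor of the cytokine Mif, and that list divided between ligand and co-receptors. Mif fell by 0.42 ± 0.15 with HFD (adjusted p = 0.0442) and was lower in HFD + eRapa than in ND + veh by a log2 fold change of -0.54 ± 0.14 (adjusted p = 0.0111), while HFD + eRapa against HFD + veh gave -0.12 ± 0.15 (adjusted p = 0.558). The co-receptors moved with the members: Cd44 rose by 3.30 ± 0.93 and fell by 3.09 ± 0.88 (adjusted p = 0.0147 and 0.0105), and Cxcr4 rose by 3.22 ± 1.01 and fell by 2.98 ± 0.96 (adjusted p = 0.0244 and 0.0213). Ddt, the second ligand, passed in no comparison.

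The factors on which Ciita docks were followed as a list of 9 genes of the class II transcription complex. With HFD 1 rose and 2 fell, beside 16.0% of all tested genes called higher and 9.86% called lower. The median log2 fold change of the list was -0.04. Nfyb, a subunit of NF-Y, fell by 0.61 ± 0.07 with HFD (adjusted p = 1.3e-05), rose by 0.24 ± 0.07 in HFD + eRapa against HFD + veh (adjusted p = 0.0124) and fell by 0.36 ± 0.07 against ND + veh (adjusted p = 0.000817). Rfxank, of the RFX complex, fell by 0.73 ± 0.18 with HFD (adjusted p = 0.00769), and Nfya rose by 0.73 ± 0.22 (adjusted p = 0.0200). In HFD + eRapa against HFD + veh 3 genes of the list fell, beside 21.1% of all tested genes. They were Rfx5, the DNA-binding subunit of RFX, by -0.73 ± 0.18 (adjusted p = 0.00435), Nfya by -0.67 ± 0.21 (adjusted p = 0.0205) and Creb1 by -0.61 ± 0.20 (adjusted p = 0.0239). Rfx5 was also lower than in ND + veh, by -0.63 ± 0.17 (adjusted p = 0.0159).

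Of 11 genes that switch Ciita on or off, 10 were tested, 7 rose with HFD and 8 fell in HFD + eRapa against HFD + veh. Beside them, 16.0% of all tested genes were called higher and 21.1% lower. Jak1, the kinase of the interferon receptors, rose by 0.58 ± 0.14 (adjusted p = 0.00548) and fell by 0.49 ± 0.13 (adjusted p = 0.00834). Ifngr1, the ligand-binding chain of the interferon gamma receptor, rose by 1.09 ± 0.35 (adjusted p = 0.0268) and fell by 1.53 ± 0.34 (adjusted p = 0.00247). The interferon regulatory factor Irf1 rose by 0.54 ± 0.14 (adjusted p = 0.0114), fell by 0.94 ± 0.14 (adjusted p = 8.26e-05) and was below ND + veh by -0.41 ± 0.14 (adjusted p = 0.0488), and Irf2 rose by 0.55 ± 0.15 (adjusted p = 0.0111) and fell by 0.39 ± 0.14 (adjusted p = 0.0397). Transcripts of interferon gamma itself (Ifng) reached 0.715 CPM at most in any animal and were not tested.

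Of 7 co-stimulatory genes and class II receptors 4 rose with HFD and 5 fell in HFD + eRapa against HFD + veh. All tested genes had shares of 16.0% called higher and 21.1% called lower. Cd86, the B7-2 ligand of CD28, rose by 3.18 ± 1.01 and fell by 3.14 ± 0.96 (adjusted p = 0.0250 and 0.0159), and Cd274, which encodes the checkpoint ligand PD-L1, rose by 2.82 ± 0.58 and fell by 3.02 ± 0.56 (adjusted p = 0.00225 and 0.000682). Cd80 rose by 2.38 and fell by 2.46, and Cd40 rose by 2.80 and fell by 3.07. Cd4, which binds class II on T cells, had a median of 0.550, 1.06 and 0.817 CPM in the 3 groups and passed in no comparison.

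Class I genes, which all nucleated cells express, were set beside them. Of 6 class I genes 3 rose with HFD (median of the list 0.58) and 4 fell in HFD + eRapa against HFD + veh (median -0.61). Among all tested genes 16.0% were called higher and 21.1% lower in these comparisons. B2m rose by 0.76 ± 0.20 (adjusted p = 0.00872) and had -0.65 ± 0.19 in the second (adjusted p = 0.0117). Nlrc5, the class I counterpart of Ciita, rose by 1.07 ± 0.27 (adjusted p = 0.00687) and fell by 1.24 ± 0.26 (adjusted p = 0.00145).

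The genes whose pattern over the 24 animals was most like that of the members, by Spearman correlation with the members' mean z-scored log2 CPM after removal of group means, were Selplg (0.990), Fcer1g (0.989), Vav1 (0.988), Msn (0.985), Hdac9, Ctss, Marcks and Tlr13 (each 0.984). Selplg encodes a selectin ligand of leukocytes, Fcer1g the common gamma chain of Fc receptors, Vav1 a signalling factor of blood cells and Tlr13 a Toll-like receptor. Of 13840 genes outside the members, 1476 had a value of at least 0.8 and the median gene had -0.02. Selplg rose by 2.60 ± 0.85 with HFD (adjusted p = 0.0285) and fell by 2.90 ± 0.82 in HFD + eRapa against HFD + veh (adjusted p = 0.0103).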

How the data were processed

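RNA-seq libraries of 24 mice (8 ND + veh, 7 HFD + veh, 9 HFD + eRapa, all of batch 1) were analysed. The authors aligned reads to mm10 (Gencode vM23) with STAR, filtered them with SAMtools 1.1.0 and deposited raw counts per gene from HTSeq 0.11.2 and FPKM values from Cufflinks. Members and gene lists were chosen with earlier results of these data known. Counts were normalised by TMM, filtered by filterByExpr and tested with the robust quasi-likelihood test of edgeR 4.0.16 in R 4.3.3 over all 24 libraries, with Benjamini-Hochberg adjustment over 13847 genes; the code was tested on simulated data. FPKM was used for levels between genes. Named were all members, up to 4 called genes per list with the highest mean CPM, and the 8 genes most like the members. Ratios were tested by exact permutation (scipy 1.17.1). Alternatives were DESeq2 1.42.0, limma 3.58.1, other filters, covariates and scalings and leaving out each library; ratios without HFD + veh 6 or ND + veh 8 were added after seeing the data. No libraries of the same group were duplicates: chi-square per degree of freedom between replicates was at least 12.3, 20.1 and 22.9 in HFD + veh, HFD + eRapa and ND + veh. Libraries of different groups were not compared in this way.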

Additional observations from a re-analysis of the deposited data

Results flagged for a closer look

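Dixon's test at the 95% level was applied to 63 sets of values, each 1 member or ratio in 1 group, and marked 3 of them, where chance gives 3.15. All 3 are ratios. The log2 ratio of H2-Aa to Cd74 in HFD + veh 6 was 0.35, with the nearest animal of its group at -1.19 and the lowest at -1.89. The log2 ratio of H2-Eb1 to Cd74 in the same animal was -0.77, with the nearest animal at -1.56 and the lowest at -1.79. The log2 ratio of Cd74 to Stab2 in ND + veh 8 was 1.94, with the nearest animal at 0.04 and the lowest at -1.61.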

How the results depend on the processing

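The members called in HFD + veh against ND + veh (6) numbered 0 with no low-count filter, with the immune score as covariate, with limma on log2(FPKM + 0.1), without ND + veh 4 and HFD + veh 6 together and with the replicate block, 1 with only the groups compared, 2 with limma on log2(FPKM + 1), 3 with a minimum of 10 counts in every library (4 members tested), and 0 to 7 when 1 library was left out. In HFD + eRapa against HFD + veh (7 called) they numbered 4 of the 4 tested with the minimum of 10 counts, 0 with the block, 2 with the immune and 0 with the endothelial score, 2 and 3 with limma on FPKM + 0.1 and + 1, 1 without ND + veh 4 and HFD + veh 6, and 1 to 7 with 1 library left out. Against ND + veh (0 called) the endothelial score gave 6. Pathway genes called numbered 14 (block), 4 (immune), 8 and 15 (FPKM + 0.1 and + 1), 13 (without ND + veh 4 and HFD + veh 6) and 11 to 29 (1 library left out) in the first comparison (25), and 14 (block), 7 (immune), 6 (endothelial), 19 (without both libraries) and 21 to 32 in the second (29); in the third (6) they numbered 13 with the endothelial score and 4 to 7 with 1 library left out. Ratios called to Cd74 numbered 0 with 5 CPM added both in the first comparison and in the third. In the first they numbered 1 without HFD + veh 6 and 2 without ND + veh 8. Ratios to other markers numbered 2 with 0.1 CPM added, 0 without HFD + veh 6 and 4 without ND + veh 8 in the first. In the third they numbered 1 without ND + veh 8. No other library was left out for the ratios.

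Signs turned as follows, in the order Cd74, H2-Aa, H2-Ab1, H2-Eb1, H2-DMa, H2-DMb1 and Ciita. With the immune score the log2 fold changes were -0.72, -0.55, -0.62, -0.30, -0.34, -0.36 and -0.51 in the first comparison and 0.66, 0.84, 0.93, 0.77, 0.53, 0.56 and 0.46 in the second. With the endothelial score they were 0.46, 0.62, 0.70, 0.55, 0.33, 0.34 and 0.23 in the second and 0.99, 1.60, 1.45, 1.61, 1.11, 1.36 and 0.91 in the third. With the replicate block the third comparison gave 0.51, 1.21, 0.87, 1.09, 0.67, 0.93 and 0.12. With 1 library left out its values ran from -0.94 to 0.23, -0.63 to 0.84, -0.52 to 0.54, -0.37 to 0.76, -0.38 to 0.50, -0.45 to 0.64 and -0.64 to 0.10. In the third comparison the immune score gave 0.28 for H2-Aa, 0.31 for H2-Ab1, 0.47 for H2-Eb1, 0.19 for H2-DMa and 0.21 for H2-DMb1; limma voom gave 0.0074 for H2-Aa, 0.046 for H2-Ab1 and 0.26 for H2-Eb1; FPKM + 0.1 gave 0.014 for H2-Ab1, 0.21 for H2-Eb1 and 0.054 for H2-DMa, FPKM + 1 gave 0.14 for H2-Eb1, and leaving out ND + veh 4 and HFD + veh 6 gave 0.011 for H2-DMa. Among ratios to Cd74, 5 CPM gave -0.025 for H2-Ab1 and -0.65 for H2-DMb1 in the first comparison, and 0.1 CPM gave 0.046 for H2-DMa in the first, -0.014 for H2-Eb1 and -0.25 for H2-DMb1 in the second and -0.19 for Ciita in the third; Cd74 to Ptprc was 0.024 in the third with 0.1 CPM. Without ND + veh 8 the ratio of H2-DMb1 to Cd74 was -0.021 in the first comparison (0.021 without HFD + veh 6), and in the third Ciita to Cd74 was -0.19, Cd74 to Ptprc 0.071 and H2-Ab1 to B2m 0.26. The cause of these changes was not tested.

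No source used here says that the replicate numbers pair the animals. The correlation of same-numbered animals' deviations had lowest values of -0.36, -0.659 and -0.518 and means of 0.316, -0.245 and -0.203 in the 3 comparisons. In these, 3 of 7, 0 of 7 and 0 of 8 animals matched their own number best. For the first comparison, where the highest correlation was 0.726, these values do not settle whether the numbers pair animals. With the block the 7 log2 fold changes ran from 2.34 to 3.35 in the first comparison (1.69 to 2.71 without it) and from -2.21 to -1.70 in the second (-2.96 to -2.19 without it); why calls were lost was not tested. Depth limits Ciita and H2-DMb1, which had 3 or fewer counts in 3 and 2 libraries.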

Other observations

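Other marker lists were followed beside the class II genes. Over all tested genes 16.0% were called higher with HFD and 21.1% lower in HFD + eRapa against HFD + veh. Of 9 T and NK cell markers 1 was tested, Il2rb, a chain of the interleukin 2 receptor, which rose by 3.22 with HFD (adjusted p = 0.0144) and fell by 3.52 in HFD + eRapa against HFD + veh (adjusted p = 0.00516). The summed level of the list ran from 0.227 to 3.08 CPM in ND + veh, from 0.261 to 58.9 in HFD + veh and from 0.056 to 2.62 in HFD + eRapa. Of 5 neutrophil markers 3 were tested, of which 2 rose and 2 fell; S100a8, a calcium-binding protein of neutrophils and monocytes, rose by 4.84 (adjusted p = 0.000809) and fell by 2.51 (adjusted p = 0.0126), and 1 marker (Ly6g) had no count in any ND + veh or HFD + eRapa animal. Of 4 plasma cell markers 2 were tested: Jchain, the joining chain of IgA and IgM, rose by 3.18 (adjusted p = 0.0109) and fell by 2.78 (adjusted p = 0.0109), and Derl3 was below ND + veh in HFD + eRapa. Of 5 cholangiocyte markers 3 were tested and all 3 rose with HFD, 1 fell in HFD + eRapa against HFD + veh and 1 stood above ND + veh in HFD + eRapa; their summed level had medians of 5.73, 106 and 20.8 CPM. The gene of that list called in all 3 comparisons was Spp1 (osteopontin), which is also made by macrophages, with log2 fold changes of 5.31, -2.68 and 2.63. Cd74 had a Spearman rho of 0.639 with the cholangiocyte sum over the 24 libraries with group means removed.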
